A study of Mus musculus with 4 samples.

Results

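The Polycomb group subunits described here are 9 genes of Polycomb repressive complex 1 (PRC1): Bmi1, Pcgf2, Ring1, Rnf2, Cbx2, Cbx7, Cbx8, Phc1 and Phc2. They were chosen by name, as all probes whose accession maps to these genes, which gave 15 probes of 41174 on the array and 9 genes of 18224 named on it, all among the 13584 genes tested. Their transcripts were measured in the posterior portion of E9.5 mouse embryos that were Jmjd3-/- and of wild-type embryos, with 2 RNA samples per genotype (Jmjd3-/- replicates 1 and 9, wild-type replicates 3 and 4) and 1 Agilent 1-colour array per sample. The embryos came from intercrosses of Jmjd3+/- mice, had their stage set from the mating time and the number of somites, and carried no other allele or treatment that the labels name. The labels do not say how the Jmjd3 allele was made, or whether a sample is 1 embryo or a pool, so the p-values measure only the spread between these samples. Wherever values are given by array, those of Jmjd3-/- are in the order of replicates 1 and 9 and those of wild-type in the order of replicates 3 and 4.

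PRC1 is a repressor of gene expression that attaches ubiquitin to histone H2A and compacts chromatin. Its canonical form holds 1 protein of each of 4 kinds: a RING ligase (Ring1 or Rnf2), a Polycomb ring finger partner of that ligase (here Bmi1 or Pcgf2), a chromobox protein (here Cbx2, Cbx7 or Cbx8) that binds a repressive methyl mark on histone H3, and a polyhomeotic protein (Phc1 or Phc2) that joins complexes into larger assemblies. Jmjd3, now named Kdm6b, removes the methyl mark that the chromobox proteins bind, and in mice the loss of several PRC1 genes shifts the identity of vertebrae through the Hox genes.

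All 15 probes were well above background on all 4 arrays, so every PRC1 value is a measured level and not a bound. A level is the log2 processed signal of a probe less the 75th percentile of its array, and levels of different probes are not on a common scale. A difference is the Jmjd3-/- mean minus the wild-type mean on that log2 scale. The targeted gene, Kdm6b, had levels of 0.35 and 0.11 on the Jmjd3-/- arrays, against 2.15 and 2.23 on the wild-type arrays, a difference of −1.96 (SE 0.12, n = 2 per genotype, adjusted p = 0.149, limma). Where its probe lies relative to the changed part of the gene was not determined. Between 59.8% and 63.0% of probes were well above background on an array. The 4 arrays lay on 1 slide with the Jmjd3-/- arrays at positions 1 and 4 and the wild-type arrays at positions 2 and 3, so a difference between the outer and the inner positions and the genotype cannot be told apart.

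No PRC1 gene passed the test between the genotypes. By limma with Benjamini-Hochberg adjustment over all 13584 genes, 0 of 9 members had an adjusted p under 0.05, where 0.0368% of all genes did, and the members' adjusted p ranged from 0.415 to 0.955. At an unadjusted p under 0.05, 1 of 9 members passed, Cbx7, where 11.1% of all genes did and 5.15% did as higher. The members' differences ran from −0.30 for Cbx8 to 0.46 for Cbx7, with 5 above 0 and 4 below. Their median was 0.02, beside −0.01 over all genes, and the median size regardless of sign was 0.14, beside 0.12 over all genes. The 95% interval of the difference lay inside 2-fold in both directions for 9 of 9 members and for 85.4% of all genes, so for these 9 genes the arrays bound the difference more tightly than a 2-fold change. The genotypes did not overlap in 6 of 9 members, where 46.8% of all genes had no overlap. Jmjd3-/- was the higher in 4 of these, where 23% of all genes were, and the lower in 2, where 23.7% were. In 4 of 9 members, Pcgf2, Cbx7, Cbx8 and Phc1, the difference was larger than both within-genotype differences, as it was for 30.4% of all genes.

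**Figure D1:**
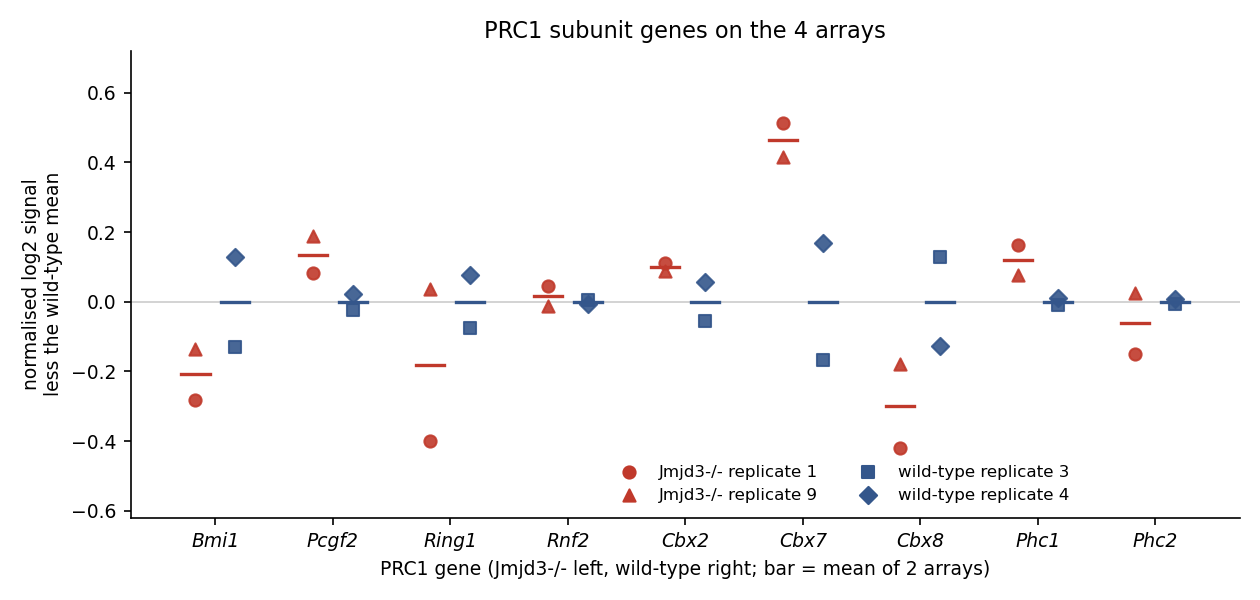
Each PRC1 gene's normalised log2 signal less its wild-type mean (vertical axis) on each of the 4 arrays, with Jmjd3-/- points left of wild-type points and a short bar at each mean of 2 arrays. Cbx7 stands highest, with a difference of 0.46, Cbx8 lowest, with −0.30, and Rnf2 lies near 0, with 0.02.

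**Figure D2:**
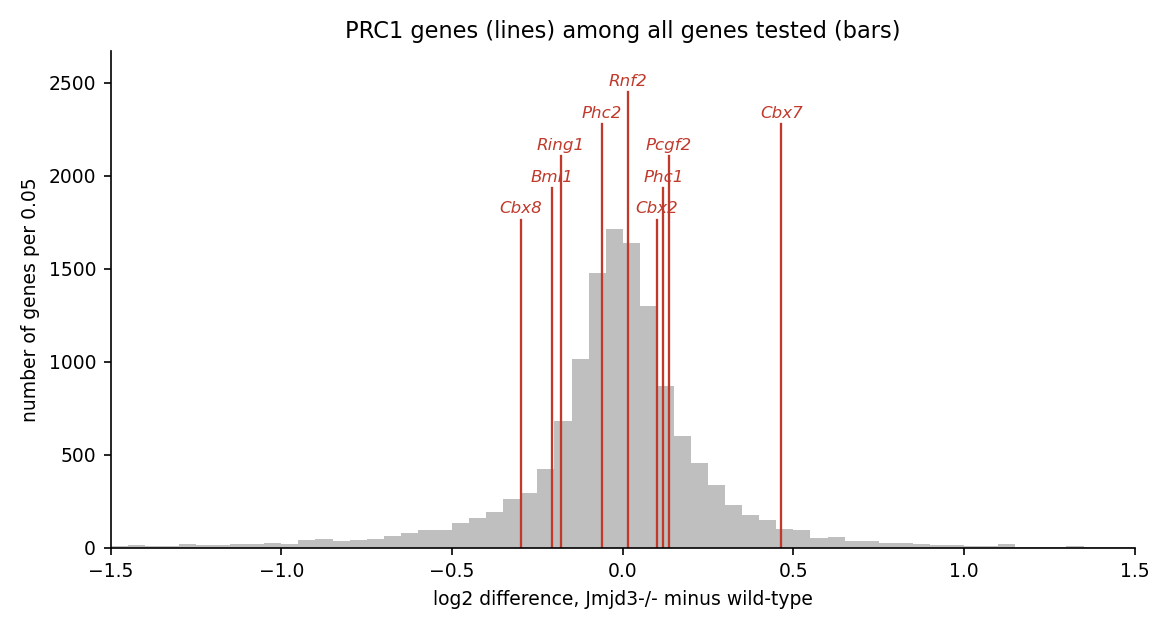
The number of genes (vertical axis, bins of 0.05) at each log2 difference, Jmjd3-/- minus wild-type, for the 13584 genes tested, with a line at each PRC1 gene. The lines spread over the body of the distribution, from −0.30 to 0.46, and the few genes beyond −1.5 or 1.5 are not drawn.

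The RING ligases, which carry the catalytic activity of PRC1, had small differences. Rnf2 had levels of 2.91 and 2.85 on the Jmjd3-/- arrays, against 2.87 and 2.86 on the wild-type arrays. The 4 arrays lay within the same narrow range, and the wild-type values fell between the Jmjd3-/- values. Its difference was 0.02 (SE 0.07, n = 2 per genotype), with a 95% interval from −0.19 to 0.23 and an adjusted p of 0.955 (limma), and a difference at least as large was found in 91.9% of all genes. Its other probe gave 0.08 (SE 0.10) in the fit of all probes. Ring1 had levels of −0.31 and 0.12 on the Jmjd3-/- arrays, against 0.01 and 0.16 on the wild-type arrays. Replicate 1 was the lowest of the 4 arrays and replicate 9 lay between the wild-type values. The difference of Ring1 was −0.18 (SE 0.18), with a 95% interval from −0.70 to 0.34 and an adjusted p of 0.739. Its other probe gave −0.09 (SE 0.19), with the same order of the Jmjd3-/- arrays, −1.29 in replicate 1 and −0.81 in replicate 9. Without Jmjd3-/- replicate 1 the difference of Ring1 was 0.04.

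The Polycomb ring finger genes, whose proteins bind the ligases and raise their activity, differed in opposite directions. Bmi1, known for its part in the self-renewal of stem cells, had levels of 0.27 and 0.42 on the Jmjd3-/- arrays, against 0.42 and 0.68 on the wild-type arrays. The genotypes did not overlap, but the higher Jmjd3-/- value and the lower wild-type value are equal when rounded to 2 decimals. The difference was −0.21 (SE 0.13), with a 95% interval from −0.57 to 0.16 and an adjusted p of 0.610. The other Bmi1 probe, A_51_P121547, had levels of −2.92 and −3.02 on the Jmjd3-/- arrays, against −2.63 and −2.60 on the wild-type arrays, again with both Jmjd3-/- arrays the lower. Its difference in the fit of all probes was −0.35 (SE 0.09), with an unadjusted p of 0.0170 and an adjusted p of 0.419 over 25056 probes (limma). This probe was dim, with processed signals of 79.7 and 71.4 units on the Jmjd3-/- arrays, against 96.6 and 104 units on the wild-type arrays. The difference of this dimmer probe was −0.20 with normexp background correction, and ran from −0.40 to −0.31 with single arrays left out. The difference of the brighter probe was −0.08 without wild-type replicate 4 and −0.34 without wild-type replicate 3. Pcgf2, the close relative of Bmi1, has 1 probe, with levels of −2.49 and −2.38 on the Jmjd3-/- arrays, against −2.59 and −2.55 on the wild-type arrays. Both Jmjd3-/- arrays were above both wild-type arrays, and the difference was 0.14 (SE 0.08), with a 95% interval from −0.10 to 0.37 and an adjusted p of 0.604. The processed signals of Pcgf2 were 107.7 and 110.9 units on the Jmjd3-/- arrays, against 99.3 and 107.4 units on the wild-type arrays. Before scaling, Jmjd3-/- replicate 1 and wild-type replicate 4 were thus nearly equal. The difference of Pcgf2 was 0.082 without Jmjd3-/- replicate 9 and 0.071 with normexp background correction.

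The chromobox genes, which encode the readers of the histone mark, held both ends of the range. Cbx7 had levels of −2.07 and −2.17 on the Jmjd3-/- arrays, against −2.75 and −2.41 on the wild-type arrays. Both Jmjd3-/- arrays were higher than both wild-type arrays, and the wild-type arrays differed by 0.34. The difference was 0.46 (SE 0.15), or 1.38-fold, with a 95% interval from 0.05 to 0.88 that belongs to the unadjusted p of 0.0357. The adjusted p was 0.415, and 11.3% of all genes had a difference at least as large in size. Cbx7 has 1 probe, A_52_P263774, with processed signals of 144 and 129 units on the Jmjd3-/- arrays, against 89.0 and 118 units on the wild-type arrays. The difference was 0.30 without wild-type replicate 3 and 0.29 with normexp background correction.

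Cbx8 had levels of −1.61 and −1.37 on the Jmjd3-/- arrays, against −1.06 and −1.32 on the wild-type arrays. Both Jmjd3-/- arrays were below both wild-type arrays, with replicate 9 only just below wild-type replicate 4. The difference of Cbx8 was −0.30 (SE 0.15), with a 95% interval from −0.71 to 0.11 and an adjusted p of 0.538, and it was −0.17 without wild-type replicate 3. Cbx2, whose loss in mice is known for skeletal transformations and sex reversal, had levels of 2.79 and 2.77 on the Jmjd3-/- arrays, against 2.62 and 2.73 on the wild-type arrays. The Jmjd3-/- arrays lay above the wild-type arrays by less than the wild-type arrays differed, which was 0.11. The difference was 0.10 (SE 0.08), with a 95% interval from −0.13 to 0.33 and an adjusted p of 0.679, and the other Cbx2 probe gave 0.003 (SE 0.10) with overlapping genotypes. The difference of Cbx2 was 0.044 without wild-type replicate 3 and 0.16 without wild-type replicate 4.

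Pcgf2, Cbx2, Cbx8 and Kdm6b all lie on chromosome 11, where Pcgf2 and Cbx2 had positive differences and Cbx8 a negative one. On chromosome 11, 146 of 1146 genes had an unadjusted p under 0.05, against 1359 of 12438 genes on the other chromosomes, where 11.1% of all genes did. The median difference was −0.011 on chromosome 11 and −0.012 on the other chromosomes. An adjusted p under 0.05 (limma) was found for 0 genes on chromosome 11 and for 5 on the others.

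The stretches just before the starts of Cbx7 and Cbx8 are shown because CpG-rich promoters are the usual sites of Polycomb binding. These are the members with the highest and the lowest difference, and neither passed the test. The RefSeq promoter table of GRCm38.p6 holds 10 promoters for 8 of the 9 members. Each sequence is the 250 bases before the start, 5′ to 3′ on the strand of the gene, with CpG dinucleotides in capitals. The first lies at chr15:79932647-79932896 and the second at chr11:119040914-119041163, both on the minus strand of GRCm38.p6.
Cbx7: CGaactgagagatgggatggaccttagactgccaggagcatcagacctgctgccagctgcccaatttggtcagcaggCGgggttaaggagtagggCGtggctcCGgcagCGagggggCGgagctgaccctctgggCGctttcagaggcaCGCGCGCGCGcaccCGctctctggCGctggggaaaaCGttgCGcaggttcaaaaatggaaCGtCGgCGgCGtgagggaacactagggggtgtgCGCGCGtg
Cbx8: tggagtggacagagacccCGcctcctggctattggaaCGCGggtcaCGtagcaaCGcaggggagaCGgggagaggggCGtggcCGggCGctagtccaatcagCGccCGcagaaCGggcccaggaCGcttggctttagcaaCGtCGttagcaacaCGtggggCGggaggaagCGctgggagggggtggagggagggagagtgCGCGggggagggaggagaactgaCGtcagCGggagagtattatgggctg
The Cbx7 stretch holds 23 CpG dinucleotides and is 64.8% G or C, and the Cbx8 stretch holds 22 and is 66.4% G or C. Whether these sequences bear on the array values was not tested. Over 300 bases (the 250 before and 50 after the start), the median promoter of the members had 66.2% G or C and 23.5 CpG dinucleotides, against 52.7% and 7 in the 32841 promoters of the table. Of the members' 10 promoters, 7 had over 50% G or C and a ratio of observed to expected CpG above 0.6, as did 33.3% of all promoters. The exceptions were those of Pcgf2 and Phc1 and 1 of the 3 for Phc2. Searched on both strands, the letters CACGTG (an E-box) were found in 4 of the 10, those of Bmi1, Pcgf2 and Cbx8 and 1 of Phc2, and in 7.15% of all promoters. The letters GGGCGG (a GC box) were found in 8 of the 10 and in 35.7% of all promoters. The other letters searched were nearer to the background or below it. CCAAT was found in 4 of the 10 and in 37.4% of all promoters, and CCGGAAG in 1 and in 8.86%. TATAAA was found in 0 of the 10 and in 13.6% of all promoters, and TTTGGCGC in 0 and in 0.515%. All promoters were not matched to the members for their content of G and C. These matches are descriptions of letters and not of sites in use.

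The polyhomeotic genes had small differences. Phc1 had levels of 2.55 and 2.46 on the Jmjd3-/- arrays, against 2.38 and 2.40 on the wild-type arrays. Both Jmjd3-/- arrays were the higher, and the difference was 0.12 (SE 0.08), with a 95% interval from −0.10 to 0.34 and an adjusted p of 0.623. Without Jmjd3-/- replicate 1 the difference of Phc1 was 0.077. Its other 2 probes gave 0.09 (SE 0.13) with overlap of the genotypes and 0.15 (SE 0.09) without. Phc2 had levels of 4.27 and 4.45 on the Jmjd3-/- arrays, against 4.41 and 4.43 on the wild-type arrays. Replicate 1 was the lowest array and replicate 9 the highest, and the difference was −0.06 (SE 0.10), with a 95% interval from −0.33 to 0.21 and an adjusted p of 0.838.

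With the settings used here, probes of the same gene had the same sign in all 5 members with more than 1 probe, Bmi1, Ring1, Rnf2, Cbx2 and Phc1. Over all genes with more than 1 probe tested, this held for 3233 of 4803 genes, or 67.3%. In the members this held for Bmi1 and Ring1 under all 11 alternatives run on probes, but not for the other 3. It held for 3 of 5 members under median scaling, where Cbx2 and Rnf2 had probes of both signs, and for 3 of 5 without wild-type replicate 3, where Cbx2 and Phc1 had. It held for 4 of 5 with quantile normalisation and without Jmjd3-/- replicate 9, where Cbx2 was the exception, and for 4 of 5 without Jmjd3-/- replicate 1, where Rnf2 was. The range between the probes of a gene had a median of 0.09 in these 5 members and 0.10 over all such genes. In the fit of all probes, 0 of 15 PRC1 probes and 0% of the 25056 probes tested had an adjusted p under 0.05 (limma). At an unadjusted p under 0.05, 2 of 15 passed, the dimmer Bmi1 probe as lower and the Cbx7 probe as higher, where 9.67% of all probes did, 4.82% as lower and 4.85% as higher. The genotypes did not overlap in 8 of 15 PRC1 probes, 5 higher and 3 lower, where 44.6% of all probes had no overlap, 23.3% higher and 21.3% lower. The 95% interval lay inside 2-fold for 15 of 15, as for 82.6% of all probes. The agreement of the probes bears on the measurement of these RNA samples and adds no embryo to the comparison.

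**Figure D3:**
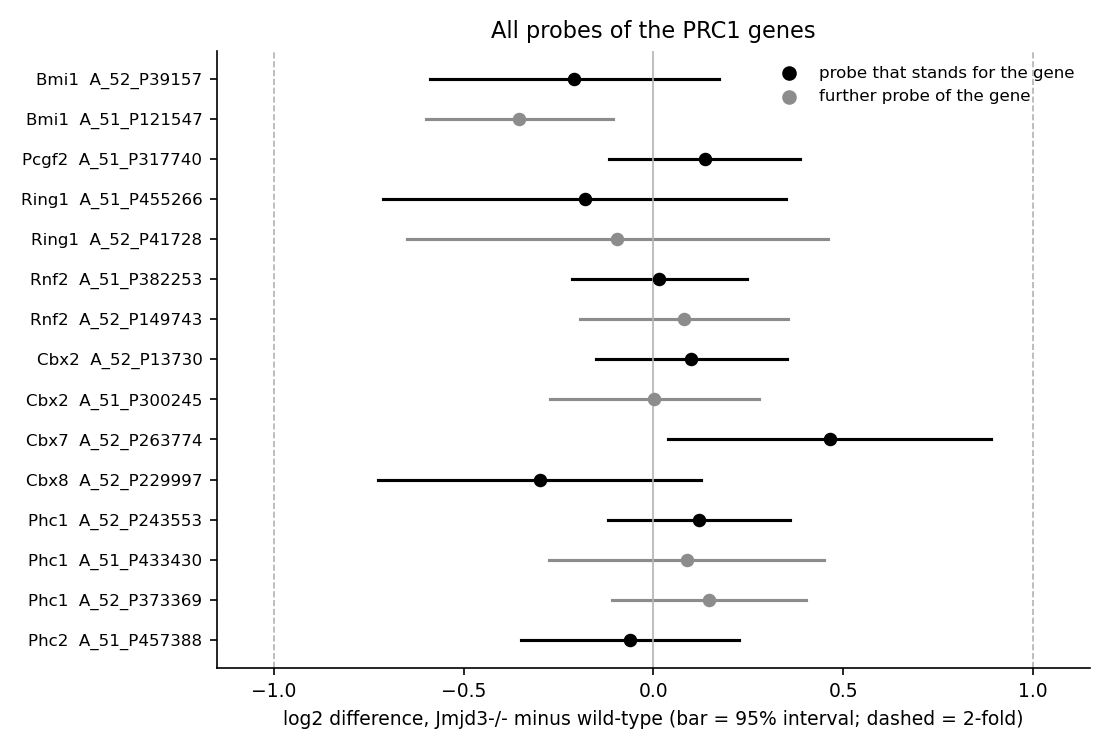
The log2 difference, Jmjd3-/- minus wild-type (horizontal axis), of the 15 PRC1 probes in the fit of all probes, with the 95% interval of each as a bar, the probe that stands for a gene in black and further probes in grey. All intervals lie between the dashed lines at 2-fold, and only those of the Cbx7 probe and of the dimmer Bmi1 probe leave out 0.

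The balance between genes that can take the same place in the complex was compared within each array, as the log2 ratio of the 2 genes less its wild-type mean. For Cbx8 over Cbx7 this was −0.93 and −0.59 on the Jmjd3-/- arrays, against 0.29 and −0.29 on the wild-type arrays. The balance was lower on both Jmjd3-/- arrays, by 0.76 in the mean, which was the largest shift of the 6 pairs compared. Cbx8 and Cbx7 are the members with the lowest and the highest difference, so this shift restates those values. For Pcgf2 over Bmi1 it was 0.36 and 0.32 on the Jmjd3-/- arrays, against 0.11 and −0.11 on the wild-type arrays, a difference of 0.34 without overlap. For Cbx2 over Cbx7 the difference was −0.36, for Cbx2 over Cbx8 0.40 and for Phc1 over Phc2 0.18, each without overlap, and for Ring1 over Rnf2 it was −0.20 with overlap. Pairs that share a gene share its values. The share of all possible gene pairs without overlap was not computed, and 46.8% of single genes had no overlap. The exact 2-sided permutation test over the 4 samples gave p = 0.333 for the 5 pairs without overlap, which is the smallest that 2 samples against 2 can give, and adjusted p = 0.400 over the 6 pairs, so this design could not reach the threshold for any pair. A ratio shows unequal change of the 2 genes and not which of them differed.

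**Figure D4:**
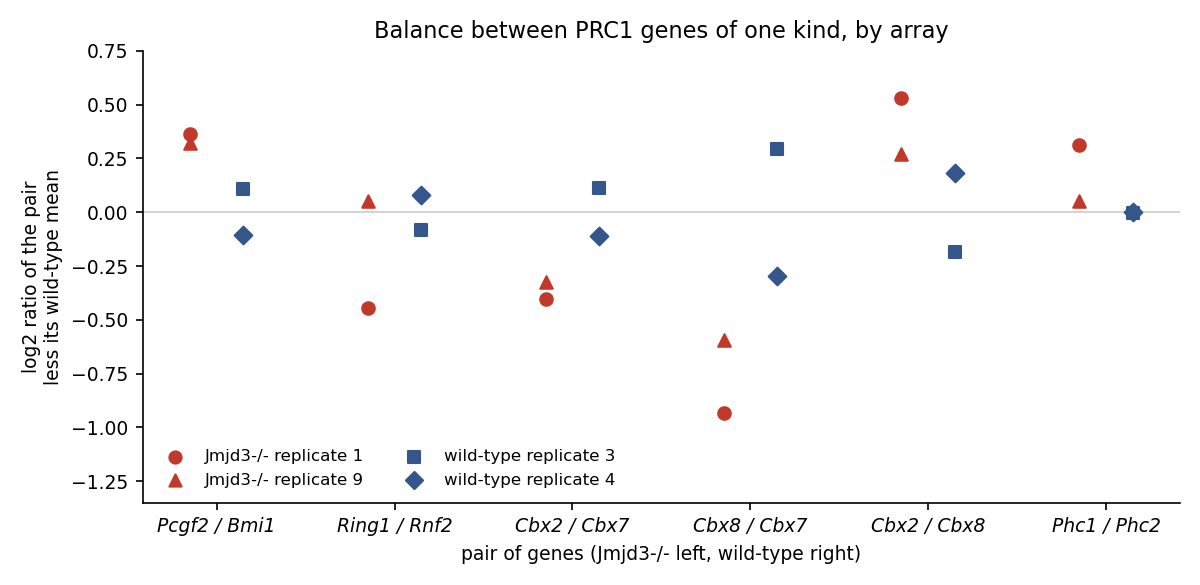
The log2 ratio of 2 PRC1 genes less its wild-type mean (vertical axis) on each array, for 6 pairs, with Jmjd3-/- points left of wild-type points. The Jmjd3-/- points of Cbx8 over Cbx7 lie at −0.93 and −0.59, below both wild-type points, and those of Ring1 over Rnf2 lie on both sides of 0.

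Markers of the tissues of the posterior embryo moved with the genotype beside these values. The summed level of 10 tail bud progenitor genes, in multiples of each array's 75th percentile, was 33.4 and 20.2 on the Jmjd3-/- arrays, against 12.0 and 12.8 on the wild-type arrays, and 10 of 10 had a positive difference. The summed level of 8 presomitic mesoderm genes was 54.0 and 29.5 on the Jmjd3-/- arrays, against 14.5 and 16.3 on the wild-type arrays, and 8 of 8 had a positive difference. In both sums each Jmjd3-/- array stood above each wild-type array, replicate 1 the furthest. Among the presomitic mesoderm genes, Rspo3, Hes7, Mesp2 and Lfng had overlapping genotypes. Rspo3 and Mesp2 were below both wild-type arrays in Jmjd3-/- replicate 9. The summed level of the 8 neuron genes tested of 10 was 3.32 and 4.45 on the Jmjd3-/- arrays, against 6.83 and 6.83 on the wild-type arrays, and 8 of 8 had a negative difference. The 6 cardiomyocyte genes summed to 3.60 and 5.01 on the Jmjd3-/- arrays, against 11.02 and 7.06 on the wild-type arrays, and the 8 primitive erythroid genes to 314 and 443 on the Jmjd3-/- arrays, against 472 and 597 on the wild-type arrays. These 3 sums, of neuron, cardiomyocyte and erythroid genes, were lower on both Jmjd3-/- arrays. The 7 endothelial genes summed to 10.4 and 9.89 on the Jmjd3-/- arrays, against 12.3 and 12.1 on the wild-type arrays. The 7 proliferation genes summed to 161 and 159 on the Jmjd3-/- arrays, against 156 and 152 on the wild-type arrays. Each sum adds unlogged levels of different probes, which are not on a common scale, so the brightest probes decide it. Median differences over genes were 1.09 for tail bud, 0.88 for presomitic mesoderm, −0.81 for neuron and −1.52 for cardiomyocyte genes. They were −0.46 for primitive erythroid, −0.12 for endothelial and 0.12 for proliferation genes. No gene of these lists passed over all genes (limma), while 8 of 10 tail bud and 4 of 8 presomitic mesoderm genes as higher had an unadjusted p under 0.05, where 5.15% of all genes did. As lower, 5 of 8 neuron, 4 of 6 cardiomyocyte, 2 of 7 endothelial, 1 of 8 primitive erythroid and 0 of 7 proliferation genes did, where 5.93% of all genes did. The marker lists were chosen with earlier results of these data known, so these counts are descriptions and not tests. Dcx among the neuron genes and Nkx2-5 among the cardiomyocyte genes were well above background on 1 of the 2 Jmjd3-/- arrays. Both were tested only because they were well above background on the wild-type arrays, and both are in the counts as lower. Myh6 was well above background on 1 of the 2 wild-type arrays. In whole tissue, fewer cells of a type and less RNA per cell cannot be told apart, and the part of these tissues in the PRC1 values was not tested.

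The genes whose pattern over the 4 arrays was nearest to that of Cbx7, by the root mean square distance of values centred on each gene's own mean, were Doc2g, Ctsw and Nkg7, at distances of 0.011, 0.017 and 0.045. Within 0.1 there were 101 genes, so with 4 arrays this pattern is not rare.

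The other genes listed with canonical PRC1, variant PRC1 and PRC2 also gave 0 passes over all genes by limma. Of 8 further genes listed with canonical PRC1, 7 were tested, with 2 positive and 5 negative differences and a median of −0.01, the same as over all genes. Among them Sfmbt2 and Scmh1 differed by 0.12 (SE 0.12) and −0.04 (SE 0.07). The list is a broad one, and Sfmbt1 and Sfmbt2 on it are not core subunits of canonical PRC1. Of 27 variant PRC1 genes, whose complexes use other ring finger partners and no chromobox reader of the histone mark, 25 were tested, with 14 positive and 11 negative differences and a median of 0.006. The ring finger gene Pcgf5 had levels of 1.14 and 1.01 on the Jmjd3-/- arrays, against 0.74 and 0.51 on the wild-type arrays, without overlap. Pcgf5 differed by 0.45 (SE 0.12, adjusted p = 0.376) and Bcorl1, a corepressor gene, by 0.54 (SE 0.16, adjusted p = 0.390), and these were the 2 of 25 variant genes with an unadjusted p under 0.05, both higher, where 11.1% of all genes passed and 5.15% did as higher. The count of 2 of 25 is near this background. Pcgf1, the ring finger partner of the complex that holds Bcor, differed by −0.30 (SE 0.11, adjusted p = 0.472).

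PRC2 places the methyl mark that canonical PRC1 reads. All 11 PRC2 genes listed were tested, with 8 positive and 3 negative differences, a median of 0.04 and no unadjusted p under 0.05. The catalytic subunit gene Ezh2 had levels of 3.12 and 3.11 on the Jmjd3-/- arrays, against 3.07 and 3.07 on the wild-type arrays, a difference of 0.04 (SE 0.07), and it was chosen for the text after its values were seen. Aebp2, Mtf2 and Ezh1, the 3 with the smallest p, differed by 0.26 (SE 0.12), 0.13 (SE 0.09) and 0.13 (SE 0.09), and another Aebp2 probe differed in sign, with −0.21 (SE 0.13).

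Of 14 genes outside the Hox clusters that are known as targets of PRC1, 13 were tested, with 3 positive and 10 negative differences and a median of −0.39, beside −0.01 over all genes. None passed over all genes (limma), and 7 had an unadjusted p under 0.05, all lower in Jmjd3-/-, where 5.93% of all genes were. The list was chosen with earlier results of these data known, so this count is a description and not a test. Pax7, a gene of dorsal neural tube and dermomyotome, differed by −0.76 (SE 0.14, adjusted p = 0.329), Nkx2-2, a gene of ventral neural tube, by −1.06 (SE 0.26, adjusted p = 0.358), and Gata6, a gene of endoderm and heart, by −0.53 (SE 0.13, adjusted p = 0.365). Of the 14 genes, 3 are also neural progenitor markers, and the summed level of the 6 neural progenitor genes was 6.53 and 9.80 on the Jmjd3-/- arrays, against 10.66 and 12.0 on the wild-type arrays. That sum includes these 3 genes, so it partly restates their values. Zic1, at −2.20 (SE 0.77), was the 1 of 6 with an unadjusted p under 0.05 (limma). The genotypes overlapped in Nes, Pax3, Pax6, Sox1 and Sox2. The cell cycle inhibitor Cdkn2b, a classical target, had a difference of 0.29 (SE 0.18, adjusted p = 0.609) and was named after its value was seen, while Cdkn2a was not well above background on both arrays of either genotype and was not tested.

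**Figure D5:**
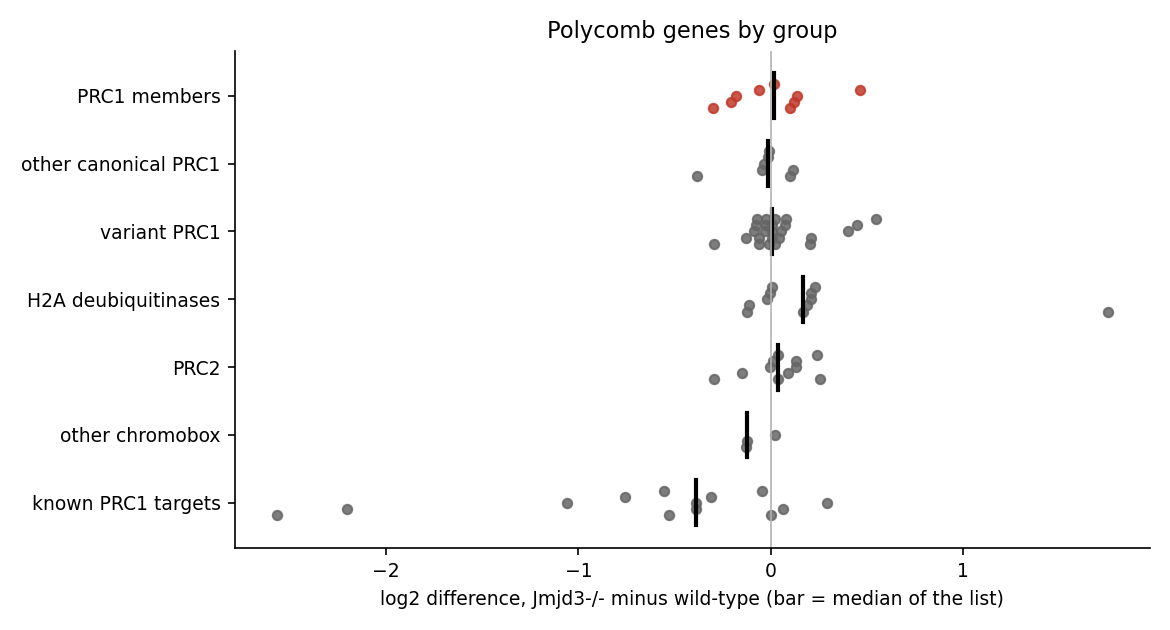
The log2 difference, Jmjd3-/- minus wild-type (horizontal axis), of each tested gene of 7 groups, with a bar at each group's median. The 9 PRC1 members lie around a median of 0.02, and the group of known PRC1 targets around −0.39; the point at 1.75 among the H2A deubiquitinase genes is Foxk2, which was high on 1 array.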

How the data were processed

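RNA of the posterior portion of E9.5 embryos, 2 samples per genotype, was measured on 4 arrays. Spot intensity, in arbitrary units of a 1-colour scan, was extracted with Agilent Feature Extraction 10.7.3.1, per the submitters' processing notes and the file headers. Background and spatial trends had been removed from the processed intensity, with no scaling between arrays, per the file headers, and each spot carries marks of 0 or 1 for background and outliers. The authors' deposited value table holds log2 values with no stated scale. Set against the scanner values they proved to be scaled to the 75th percentile and centred on the wild-type mean (r from 0.995 to 0.997 across probes, 99.9% within 0.01), which settles scale, centring and direction. Column medians were −0.02 and 0.05 (Jmjd3-/-), and 0.02 and −0.02 (wild-type).

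Of 45018 spots, 1639 controls were left out, log2 signals were averaged per probe (41174 probes), and each array's 75th percentile, 578 to 627 units, was subtracted. The RefSeq gene table of GRCm38.p6 named 26690 probes by accession and 28 by symbol or synonym, for 18224 genes, and 14456 probes stayed without a name; the file headers name another build, so no gene coordinates were taken from it. The probe with the highest mean stood for a gene. A gene or probe was tested where both arrays of 1 genotype or more had it well above background, which left 13584 genes and 25056 probes, with limma 3.58.1 in R 4.3.3 (lmFit, eBayes, Benjamini-Hochberg, adjusted p under 0.05), after a test on simulated data. Alternatives changed the background correction, scaling, filter, probe choice, source of values and samples. The normexp alternative was run on the median spot signal. No 2 arrays of a genotype held equal values, and the number of arrays limits the precision. Named genes were the 9 members, Kdm6b, the 3 smallest p of each further list and the 3 genes most like the member with the largest difference. One gene that this rule names is not reported here. The members and lists were chosen with earlier results of these data known.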

Additional observations from a re-analysis of the deposited data

How the results depend on the processing

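Under the 12 alternatives, 0 of 9 PRC1 genes passed in any, and under the 11 run on all probes 0 of 15 PRC1 probes passed. The lowest adjusted p of any member under any alternative was 0.142, for Ring1 without Jmjd3-/- replicate 9. Bmi1, Pcgf2, Cbx2, Cbx7, Cbx8 and Phc1 kept their sign under all 12. Rnf2 changed sign with median scaling (−0.0017) and without Jmjd3-/- replicate 1 (−0.013), and Ring1 (0.037) and Phc2 (0.026) changed sign without that array. With single arrays left out Ring1 ran from −0.40 to 0.037, Rnf2 from −0.013 to 0.044 and Phc2 from −0.15 to 0.026, and the cause was not tested. The members' median was 0.016, with −0.0017 under median scaling, 0.048 when probes of a gene were averaged and from 0.010 to 0.044 with single arrays left out. The count of members at an unadjusted p under 0.05 was 1, and it was 2 when probes were averaged and 0 without Jmjd3-/- replicate 1 or wild-type replicate 3. The number of all genes that passed was 5, and it was 2 with normexp, 0 with quantile normalisation, 0 without the filter on dim probes, 0 with a filter on all 4 arrays, and from 0 to 167 with single arrays left out, where 167 came without Jmjd3-/- replicate 9; the lone array left in a genotype is then assumed to vary like the other genotype. The cause was not tested. The 6 pair balances kept their sign under the 7 alternatives run on them, and Cbx8 over Cbx7 was −0.51 with normexp. No paired analysis was possible because the genotypes share no replicate number. Pcgf2, Cbx7, Cbx8 and Phc2 have 1 probe each, and with 2 samples per genotype a difference the size of that of Cbx7 could not be told from the spread after adjustment.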

Other observations

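Enzymes and partners that remove ubiquitin from histone H2A, the opposite of the PRC1 reaction, were all 11 tested. Of these, 7 had positive and 4 had negative differences, with a median of 0.16 beside −0.01 over all genes, and 0 passed over all genes or had an unadjusted p under 0.05 (limma). The positive ones include Foxk2, at 1.75 from a probe that was high on 1 array. The other probes of Foxk2 were at −0.20 and −0.14, so the count and the median depend on the probe taken for it. Ogt, Foxk1 and Hcfc1, genes whose proteins join the deubiquitinase Bap1, differed by 0.21 (SE 0.09), 0.23 (SE 0.12) and 0.19 (SE 0.11), while 1 of the 3 probes of Foxk1 was at −0.15 (SE 0.12). Bap1 itself, chosen after its value was seen, differed by −0.02 (SE 0.08).

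Foxk2, also chosen after its values were seen, had a level of 2.09 in Jmjd3-/- replicate 1 and 5.49 in Jmjd3-/- replicate 9, against 2.06 and 2.02 on the wild-type arrays. Its other 2 probes had no such high value in replicate 9 and differed by −0.20 (SE 0.08) and −0.14 (SE 0.08). The chromobox genes outside canonical PRC1, Cbx1, Cbx3 and Cbx5, which encode readers of another methyl mark, differed by −0.12 (SE 0.13), −0.13 (SE 0.13) and 0.02 (SE 0.07), and 0 of 3 passed or had an unadjusted p under 0.05 (limma). Cbx3 is also counted among the variant PRC1 genes above.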
